A study of Mus musculus with 24 samples.

Results

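Zinc handling was examined in mouse kidney through 8 genes: the metallothioneins Mt1 and Mt2, the zinc-sensing transcription factor Mtf1, the zinc importers Slc39a14, Slc39a8, Slc39a4 and Slc39a5, and the zinc exporter Slc30a1. They were picked by symbol, as 8 of the 53392 genes quantified, and each matched 1 gene identifier. The study sequenced messenger RNA from kidneys of male (M) and female (F) FVB mice, an inbred strain, labelled as uninjured after sham surgery or as having ischemic acute kidney injury. Proximal tubules (labelled PTs) were collected by microdissection, and cells labelled endothelial (endo) were pulled from digested kidney with beads against CD31, the protein of Pecam1. Each of the 8 groups (sham or injured, M or F, tubule or endothelial) held 3 libraries, apart from the sham F endothelial group, which held 2. No transgene or drug is named for any group, and the age of the mice, the length of ischemia and the time after it are not given in the sources used here.

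Zinc is bound inside cells by metallothioneins, small proteins rich in cysteine. Mtf1 senses free zinc and drives the metallothionein genes and Slc30a1 from short promoter motifs called metal response elements, and metallothioneins are also known to respond to glucocorticoids, cytokines and oxidative stress. ZIP proteins (the Slc39a genes) bring zinc into the cytosol from outside or from vesicles, and ZnT proteins (the Slc30a genes) move it out. The proximal tubule takes back filtered metallothionein and the metals bound to it.

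The 23 libraries held 32592517 to 54906972 estimated reads, counting as 1 the sham M tubule replicate 3 that was sequenced as 2 libraries. Levels are CPM, read counts scaled to the TMM-adjusted library size, comparable between libraries for 1 gene, and levels of different genes are set side by side only as the deposited TPM, which allows for transcript length. Changes are log2 ± SE from edgeR's quasi-likelihood test, and a gene is called at a Benjamini-Hochberg adjusted p under 0.05 over all genes tested. Means are ± SD with n = 3 unless another n is given.

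The labels were checked against marker genes by their summed CPM. Proximal tubule markers (10 genes, among them Lrp2 and Slc34a1) summed to 8342 to 21120 CPM in the tubule libraries, and to 6357 to 20910 CPM in the libraries labelled endothelial. All 10 endothelial markers were higher in the endothelial than in the tubule libraries after sham surgery and after injury, and their sum was 424 to 1892 CPM against 131 to 358 CPM in tubule. Thick ascending limb markers, such as Umod and Slc12a1, summed to 8100 to 15930 CPM in the endothelial libraries. These libraries therefore carried endothelial RNA together with much tubular RNA, and they are called CD31 isolates below. In such bulk samples, fewer cells of a type and less RNA per cell cannot be told apart. Library 3 of the injured M tubules stood apart from the other 2 for several of the 8 genes, and results that turn on it are given with and without it.

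The 2 metallothionein genes lie side by side on chromosome 8 of GRCm38, both on the plus strand: Mt2 at 94172664 to 94173568 and, 5514 bases on, Mt1 at 94179082 to 94180327. Their coding parts are 186 bases long and identical at 148 positions (79.6%), and the longest run shared by the transcripts, of 549 and 511 bases, is 20 bases. The coding sequences, from GENCODE M21 transcripts, are shown with the cysteine codons in capitals, which number 20 of 61 in each gene.
Mt1: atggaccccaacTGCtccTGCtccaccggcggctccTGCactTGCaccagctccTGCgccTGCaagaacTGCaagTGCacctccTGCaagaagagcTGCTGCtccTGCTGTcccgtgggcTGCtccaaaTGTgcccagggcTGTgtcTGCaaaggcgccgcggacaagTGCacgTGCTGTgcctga
Mt2: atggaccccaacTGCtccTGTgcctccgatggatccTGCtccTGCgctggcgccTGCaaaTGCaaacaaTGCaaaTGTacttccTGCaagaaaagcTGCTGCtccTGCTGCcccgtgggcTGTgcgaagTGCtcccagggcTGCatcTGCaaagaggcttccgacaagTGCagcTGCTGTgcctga
The antisense gene Gm45774 shares 432 of the 588 exonic bases of Mt2, and the strand of the reads is not given in the sources used here, so reads of the pair cannot be told apart by strand. Gm45774 itself was given 4.90 CPM in injured and 0.370 CPM in sham M tubules (3.72 ± 1.13, edgeR adjusted p = 0.042).

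Because Mt1 and Mt2 moved together, the bases before their starts are shown, with those of Slc30a1, which is known as a target of the same factor and did not move with them. RefSeq promoter windows (GRCm38.p6, 250 bases before to 50 after the start) matched 6 of the 8 genes, leaving Slc39a14 and Slc39a4. They were searched on both strands for the 7-letter core of the metal response element, TGCACNC or TGCGCNC, with overlapping matches counted separately. The printed stretches stop before the annotated start of the gene, and matches are in capitals: Mt1 at chr8:94178839-94179081, Mt2 at chr8:94172368-94172617 and Slc30a1 at chr1:191906531-191906766, all on the plus strand.
Mt1: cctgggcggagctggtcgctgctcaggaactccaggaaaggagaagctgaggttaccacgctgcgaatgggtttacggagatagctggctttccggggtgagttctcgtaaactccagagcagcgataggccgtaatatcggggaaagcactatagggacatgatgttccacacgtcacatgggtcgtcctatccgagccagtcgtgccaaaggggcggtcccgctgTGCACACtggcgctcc
Mt2: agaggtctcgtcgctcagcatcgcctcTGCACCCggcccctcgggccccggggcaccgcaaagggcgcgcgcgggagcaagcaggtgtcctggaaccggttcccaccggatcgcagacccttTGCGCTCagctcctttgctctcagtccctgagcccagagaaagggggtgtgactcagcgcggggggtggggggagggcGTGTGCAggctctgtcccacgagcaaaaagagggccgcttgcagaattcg
Slc30a1: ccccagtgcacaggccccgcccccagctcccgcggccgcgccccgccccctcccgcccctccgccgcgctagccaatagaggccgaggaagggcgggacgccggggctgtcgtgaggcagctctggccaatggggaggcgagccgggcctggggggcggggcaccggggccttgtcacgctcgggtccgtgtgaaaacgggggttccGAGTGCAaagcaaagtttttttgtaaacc
The 300-base windows held 3 matches for Mt1, 4 for Mt2 and 2 for Slc30a1, of which 1, 3 and 1 lie in the stretches shown. Of all 32851 windows, 25.7% held at least 1 match, 7.11% at least 2, 1.97% at least 3 and 0.517% at least 4. Both Slc39a8 and Slc39a5 had 2 windows, with 1 match in one and 0 in the other, and the Mtf1 window had 0.

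Injured and sham tubules of males were compared first. The metallothioneins rose most, the importer Slc39a14 rose with them, and the importer Slc39a8 and the exporter Slc30a1 fell. Of the 7 genes tested (Slc39a4 was too low), 5 were called, 3 higher and 2 lower, while 19.0% of all 18369 genes tested were called, 10.6% higher and 8.43% lower. Their median log2 change was 0.34, against -0.03 over all genes.

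Mt1 stood at 68.2, 38.8 and 24.98 CPM in sham M tubules and at 777, 780 and 96.8 CPM after injury. All 3 injured libraries lay above the sham ones, but library 3 only by a small margin. Mt1 rose 12.5-fold (3.65 ± 0.64, edgeR adjusted p = 0.0051). Mt2 went from 29.9, 19.9 and 6.04 CPM to 470, 454 and 67.9 CPM, again with no overlap and with library 3 lowest. Its rise was 17.7-fold (4.15 ± 0.70, adjusted p = 0.0043). With only the 2 M groups in the fit, both calls were lost (Mt1 3.69, adjusted p = 0.078; Mt2 4.19, adjusted p = 0.073), and 0.913% of all genes were called. Mt3, a family member known mainly from brain, was at most 0.805 CPM in the tubule group means and did not pass. Neutrophil markers moved the same way: their sum was 1.22 to 1.86 CPM in sham and 30.1, 18.1 and 4.51 CPM in injured M tubules, lowest in library 3 as well, and 4 of 5 tested were called higher. None of the 6 was at 0 in the injured libraries, where S100a9 reached 13.5 CPM, while S100a8, Retnlg and Ly6g were each at 0 in 2 sham libraries. Library 3 also had the lowest injured sum for most other marker lists, though not for principal cells, podocytes or T cells. Thick ascending limb sums, for example, were 4627, 4645 and 2010 CPM in injured M tubules. The part of any of these cells in the metallothionein levels was not tested.

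Slc39a14 (ZIP14; chromosome 14, 70303469 to 70351425, minus strand) carries zinc, manganese and iron not bound to transferrin, and is known as an importer of the acute-phase response. It stood at 71.6, 70.6 and 60.0 CPM in sham M tubules and at 292, 229 and 86.0 CPM after injury. The order of the injured libraries was that of the neutrophil marker sums given above, and also that of the proximal tubule, endothelial, erythroid and B cell sums. The rise was 3.00-fold (1.59 ± 0.34, edgeR adjusted p = 0.013), and it missed the threshold without injured M library 1 (1.23, adjusted p = 0.0503) or 2 (1.49, adjusted p = 0.0508), or with only the 2 M groups in the fit (1.62, adjusted p = 0.097).

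Slc39a8 (ZIP8; chromosome 3, 135825279 to 135888572, plus strand), which is close to ZIP14 in sequence and carries zinc, manganese and cadmium, went the other way. It fell from 86.4, 88.0 and 60.2 CPM to 32.2, 28.5 and 32.5 CPM, a 2.52-fold drop (-1.33 ± 0.17, edgeR adjusted p = 0.0011). Here library 3 lay with the other injured ones. Proximal tubule markers fell beside it, from a sum of 17330 to 21120 CPM in sham to 8342 to 11180 CPM in injured M tubules, with 6 of 10 called lower, and their part in the Slc39a8 level was not tested.

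Slc30a1 (ZnT1; chromosome 1, 191906767 to 191913247, plus strand) exports zinc across the cell membrane. It stood at 112, 118 and 137 CPM in sham M tubules and at 64.1, 57.5 and 106 CPM after injury, a 1.61-fold fall (-0.69 ± 0.20, edgeR adjusted p = 0.036). The groups did not overlap, with injured library 3 nearest to the sham ones. This call was lost when injured M library 1 or 2 or any 1 sham M library was left out (adjusted p 0.066 to 0.14), with length offsets (adjusted p = 0.11) or with only the 2 M groups in the fit (adjusted p = 0.19), and without injured library 3 the change was -1.01 (adjusted p = 3.2e-05).

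Mtf1 (chromosome 4, 124802104 to 124849800, plus strand) stood at 19.4, 18.7 and 31.5 CPM in sham and 35.1, 31.9 and 21.4 CPM in injured M tubules, and the groups overlapped (0.34 ± 0.24, edgeR adjusted p = 0.33). Slc39a5 (ZIP5; chromosome 10, 128395931 to 128401229, minus strand), an importer of the basolateral membrane in intestine and pancreas, stood at 23.1, 24.3 and 40.6 CPM in sham and 17.8, 10.7 and 29.4 CPM in injured M tubules, also with overlap (-0.60 ± 0.31, adjusted p = 0.19). Without injured M library 3 Slc39a5 was called lower too (-1.04, adjusted p = 0.0062). That library moved the whole comparison: without it 6 of the 7 genes were called, against 42.5% of all genes.

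**Figure D1:**
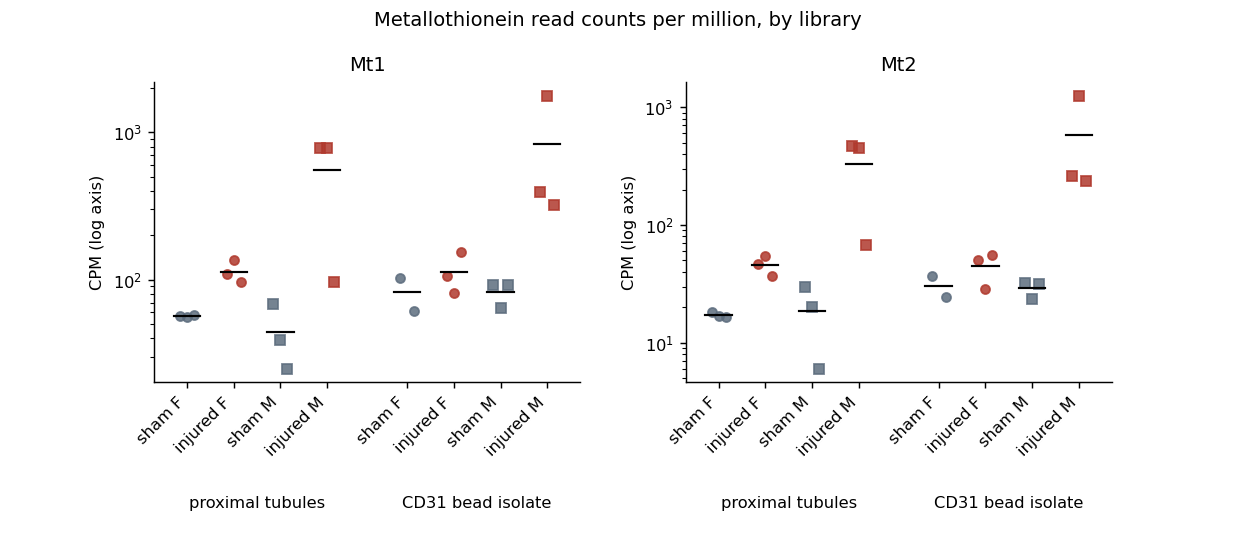
Mt1 (left) and Mt2 (right) in CPM on a log axis, 1 point per library (circles F, squares M; grey sham, red injured), with a black bar at the mean of each of the 8 groups. Injured M libraries are the highest of each isolation apart from Mt1 in tubule library 3, which lies at 96.8 CPM, inside the range of the injured F tubules.

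In tubules of females, 0 of 7 genes were called after injury by edgeR, where 0.0109% of all genes were called, and 0 by DESeq2, where 1.91% were. At an unadjusted p under 0.05 there was 1 of 7, Mt2, against 11.1% of all genes. Mt1 stood at 57.0, 56.3 and 57.7 CPM in sham and at 109, 136 and 96.7 CPM in injured F tubules, so that the libraries did not overlap although the change did not pass (1.00 ± 0.58, edgeR adjusted p = 0.61). Mt2 stood at 18.1, 16.9 and 16.4 CPM in sham and at 46.5, 54.5 and 37.1 CPM after injury (1.42 ± 0.63, adjusted p = 0.43). The sham F libraries were close to each other for both genes, and the SE comes from the spread pooled over all 4 tubule groups. When only the 2 F groups were fitted, both passed (Mt1 adjusted p = 0.0033, Mt2 adjusted p = 0.0017), with 6.9% of all genes, whereas the same kind of fit in males lost both, as given above. Thick ascending limb markers were also further up in injured F tubules (4909 to 6642 CPM, against 1319 to 1820 CPM in sham, with 0 of 5 called). So were those of principal cells (612 to 850 CPM, against 60.9 to 173 CPM in sham) and intercalated cells (227 to 297 CPM, against 35.7 to 101 CPM), again with 0 of 5 called in each. By log2 change 4 of the 5 thick ascending limb genes were higher after injury, as were all 5 of the principal and of the intercalated cell lists. The median log2 changes were 1.84, 2.37 and 2.03 for these lists in turn, against 0.004 over all genes. The part of these cells in the metallothionein values was not tested.

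The transporters lay near their sham values in females. Slc39a14 stood at 33.8, 25.2 and 40.1 CPM in sham and at 31.8, 30.9 and 34.4 CPM in injured F tubules (-0.03 ± 0.34). Slc39a8 had 49.4, 53.8 and 63.2 CPM and then 43.7, 48.0 and 40.0 CPM (-0.34 ± 0.16, edgeR adjusted p = 0.49), without overlap. Slc30a1 had 72.0, 63.5 and 68.6 CPM in sham and 77.5, 74.6 and 78.8 CPM in injured F tubules (0.18 ± 0.20), a value of the opposite sign to that in males. The values of Slc39a5 and Mtf1 overlapped between the F groups.

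The difference between the sexes in the tubule response was tested directly. By edgeR 0 of 7 genes passed, where 0.855% of all genes did, although 5 of 7 had an unadjusted p under 0.05 (20.0% of all genes). The estimates were 2.65 ± 0.83 for Mt1 (edgeR adjusted p = 0.13), 2.72 ± 0.89 for Mt2 (adjusted p = 0.14), 1.61 ± 0.48 for Slc39a14 (adjusted p = 0.12), -0.996 ± 0.232 for Slc39a8 (adjusted p = 0.065) and -0.86 ± 0.28 for Slc30a1 (adjusted p = 0.14). Positive values mean a larger rise in males. DESeq2 called 4 of these 5, all but Slc30a1, while it called 4.01% of genes with a read. Without injured M library 3, edgeR called 6 of 7, all but Mtf1, while 30.5% of all genes were called. Without sham M library 3, Slc39a8 alone passed (-1.16, adjusted p = 0.029).

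**Figure D2:**
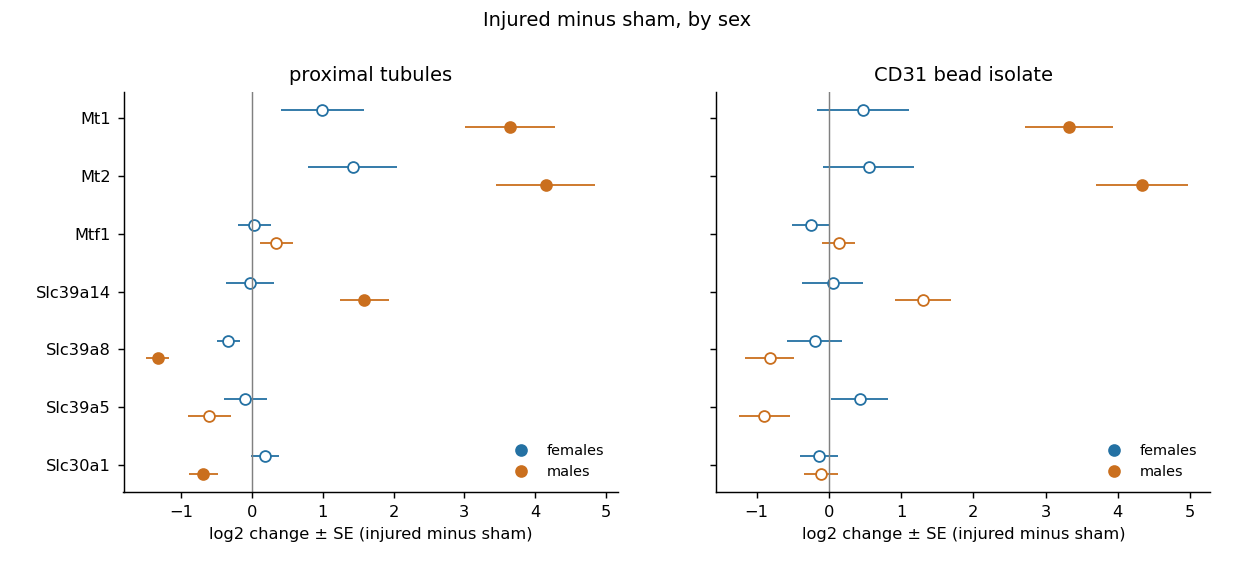
Log2 change after injury (injured minus sham, x axis) of 7 genes in tubules (left) and CD31 isolates (right), blue for females and orange for males, with bars of 1 SE and filled points where the edgeR adjusted p was under 0.05. The 2 metallothioneins show the largest changes in males of both isolations, and no female point is filled.

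The next comparison was of males with females. After sham surgery the tubules differed between the sexes in transporters, not detectably in metallothioneins: 2 of 7 genes were called, 1 higher and 1 lower in males, where 5.8% of all genes were called, 3.24% higher and 2.56% lower. Slc39a5 was lower in males, at 23.1, 24.3 and 40.6 CPM against 120, 112 and 107 CPM in females, a 3.85-fold difference (-1.94 ± 0.32, edgeR adjusted p = 0.0038). The 2 groups were far apart, and the call held in each fit run here. Slc30a1 was higher in males, at 122 ± 13.5 against 68.0 ± 4.23 CPM (0.85 ± 0.20, adjusted p = 0.030), a call lost when any 1 of the 6 libraries was left out (adjusted p 0.067 to 0.10). Slc39a14 did not overlap between the sexes (67.4 ± 6.42 in males, 33.0 ± 7.47 CPM in females) and did not pass (1.03 ± 0.34, adjusted p = 0.11), though it did by DESeq2 (adjusted p = 0.048), with only the sham groups in the fit (adjusted p = 0.010) and without injured M library 3 (adjusted p = 0.0017). Slc39a8 overlapped (0.50 ± 0.16, adjusted p = 0.11) and passed without sham M library 3 (0.66, adjusted p = 0.025). Mt1 (-0.37 ± 0.58) and Mt2 (0.12 ± 0.62) overlapped. The gene body of Slc39a5 lies wholly within that of Ankrd52 on the other strand, but their exons share 0 bases, and Ankrd52 had 24.1 CPM in sham M and 22.5 CPM in sham F tubules. On the opposite strand Slc30a1 shares 468 of 5244 exonic bases with 1700034H15Rik, which had at most 0.487 CPM in the tubule groups. Mtf1 shares 721 of 8907 with 1110065P20Rik, which stood at 22.9 to 23.4 CPM in them.

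In injured tubules 5 of 7 genes were called between the sexes, 3 higher and 2 lower in males, where 23.3% of all genes were called, 12.8% higher and 10.5% lower. Slc39a14 was 6.25-fold higher in males (202 ± 106 against 32.4 ± 1.77 CPM; 2.64 ± 0.36, edgeR adjusted p = 9.9e-04), and its lowest M library, at 86.0 CPM, lay above the highest F one, at 34.4 CPM. Slc39a5 was 5.47-fold lower (19.3 ± 9.44 against 106 ± 2.33 CPM; -2.45 ± 0.32, adjusted p = 8.8e-04). Both calls held in each fit run here. The metallothioneins were higher in males, Mt1 by 4.85-fold (2.28 ± 0.60, adjusted p = 0.021) and Mt2 by 7.18-fold (2.84 ± 0.66, adjusted p = 0.012). Mt1 overlapped, since M library 3 (96.8 CPM) equalled the lowest F library to within 0.1 CPM. The Mt1 call was lost without any 1 of the F libraries or without M library 1 or 2 (adjusted p 0.060 to 0.079), and the Mt2 call without F library 1 or 3 (adjusted p 0.0501 and 0.053). Slc39a8 was 1.41-fold lower in males (-0.50 ± 0.16, adjusted p = 0.047) and lost its call in most of the other fits, among them without any 1 of the F libraries or without M library 1 or 2 (adjusted p 0.078 to 0.17). Without M library 3, all 7 genes were called, against 44.1% of all genes.

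**Figure D3:**
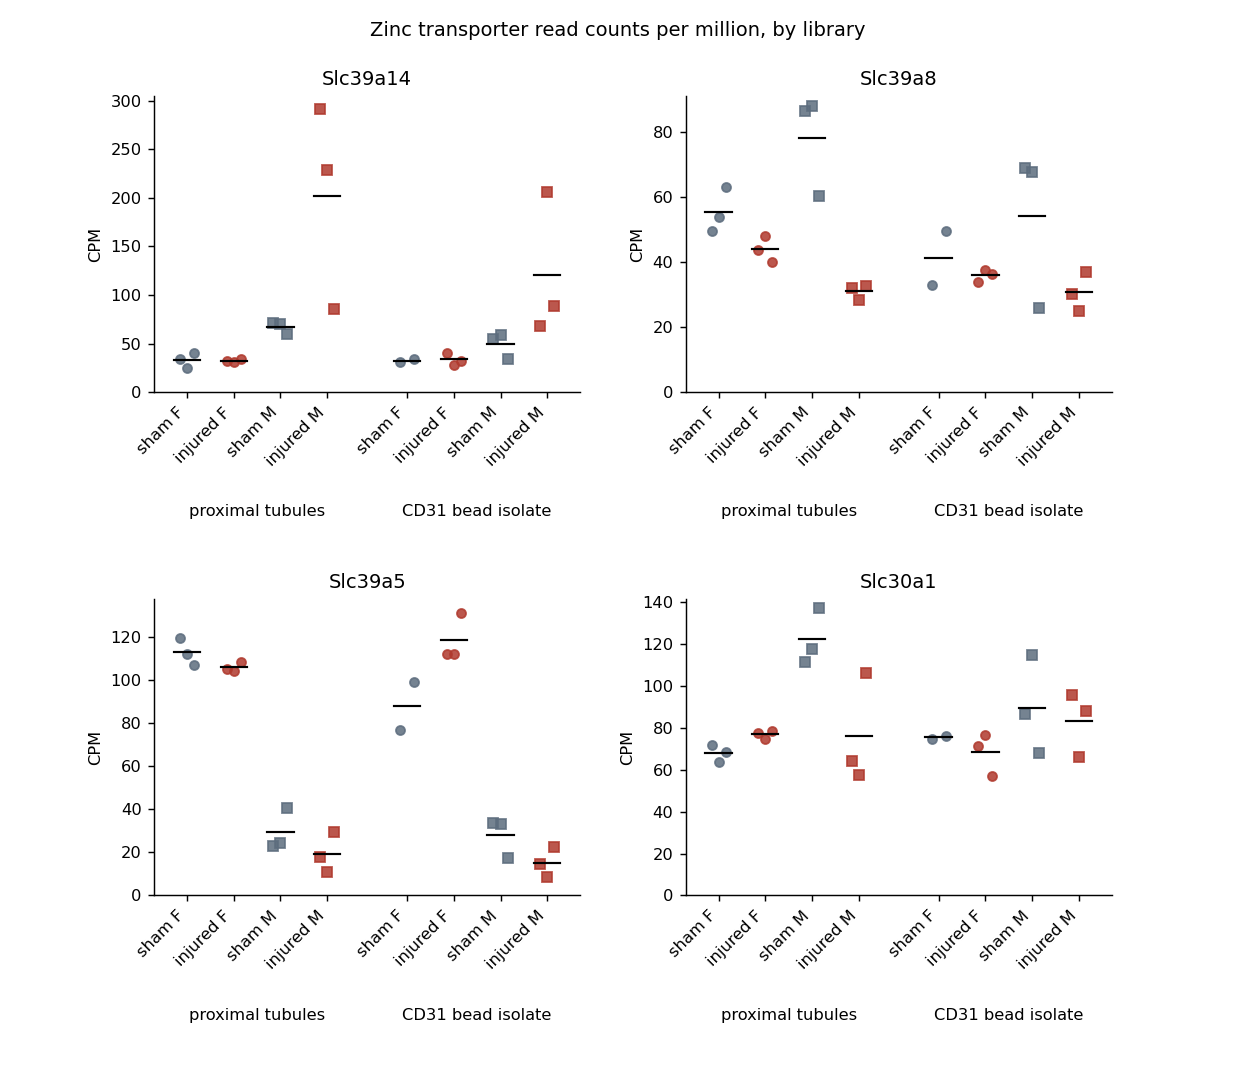
CPM of Slc39a14, Slc39a8, Slc39a5 and Slc30a1, 1 point per library (circles F, squares M; grey sham, red injured) with a black bar at each group mean. Slc39a5 separates the sexes in every group of both isolations, and Slc39a14 is highest in injured M tubules.

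The levels of the genes relative to each other differed between the sexes already in sham tubules. In females the TPM order was Mt1 (81.9 ± 3.96), Slc39a5 (36.5 ± 3.38) and Mt2 (36.3 ± 1.98), then Slc30a1 (8.36 ± 1.09), Slc39a8 (8.32 ± 1.01), Slc39a14 (5.02 ± 1.83) and Mtf1 (4.15 ± 0.481). Slc39a5 and Mt2, Slc30a1 and Slc39a8, and Slc39a14 and Mtf1 are neighbours in this order that differ by less than their spread. In males it was Mt1 (61.9 ± 28.8), Mt2 (40.0 ± 24.9), Slc30a1 (18.3 ± 1.89), Slc39a8 (11.8 ± 2.41), Slc39a14 (11.3 ± 0.354), Slc39a5 (9.11 ± 4.06) and Mtf1 (3.79 ± 0.760). Mt1 and Mt2 overlap there, as do Slc39a8, Slc39a14 and Slc39a5. Slc39a5 was thus the leading transporter by TPM in female tubules, while in male tubules it lay among Slc39a8 and Slc39a14, above both in library 3 (13.8 TPM). In injured M tubules Mt1 (703 ± 462) and Mt2 (641 ± 400.5) led, followed by Slc39a14 (34.1 ± 15.1).

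Slc39a4 (ZIP4; chromosome 15, 76612383 to 76617384, minus strand), the importer of dietary zinc in the intestine, was barely detected. It had 0 reads in 11 of 23 libraries and at most 0.448 CPM, or 20 estimated reads, in library 2 of the injured M CD31 isolates. In sham M tubules it had 0 reads in all 3 libraries, which allows up to 0.0237 CPM over the group at 3 counts, a limit that covers counting error only.

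The ratio of Mt2 to Mt1 was higher in all injured than in all sham libraries of 3 of the 4 pairs of groups, and none of the 4 passed a test. In TPM it was 0.674, 0.768 and 0.371 in sham M tubules and 0.906, 0.890 and 1.05 after injury. Library 3 of the injured males, lowest in level, had the highest ratio of the group. In F tubules the ratio went from 0.478, 0.413 and 0.442 to 0.657, 0.623 and 0.590, without overlap. In CD31 isolates of males it was 0.544, 0.530 and 0.495 in sham and 0.985, 1.07 and 1.09 in injured libraries, again without overlap, and in those of females it overlapped (0.504 and 0.553, then 0.689, 0.534 and 0.529). Each of the first 3 differences had p = 0.10 in an exact two-sided permutation test, the smallest that 3 against 3 libraries can give, and the F isolates had p = 0.60. Over these 4 tests the Benjamini-Hochberg adjusted values were 0.13 for each of the first 3 and 0.60. The level of the ratio depends on the annotated transcript lengths, but the ratio of raw reads kept the same separation: 0.582 to 0.702 in injured and 0.242 to 0.514 in sham M tubules.

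**Figure D4:**
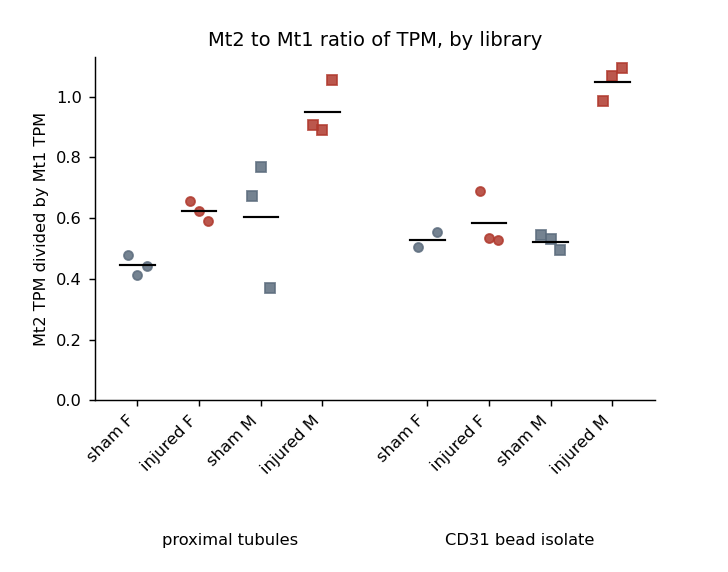
Mt2 TPM divided by Mt1 TPM (y axis) in each library (circles F, squares M; grey sham, red injured), with black bars at group means. Injured M libraries lie between 0.890 and 1.09 in both isolations, above every other library.

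In the CD31 isolates of males the metallothioneins rose after injury as well. Of 7 genes tested 2 were called, both higher, where 0.864% of all 19910 genes were called. Mt1 stood at 91.7, 64.6 and 91.7 CPM in sham and at 393, 1774 and 319 CPM after injury, a 10.0-fold rise (3.33 ± 0.61, edgeR adjusted p = 0.038). Mt2 stood at 31.9, 23.7 and 31.4 CPM and then at 259, 1256 and 237 CPM, a 20.1-fold rise (4.33 ± 0.64, adjusted p = 0.016). Neither gene overlapped, and library 2 was by far the highest for both. That library also had the highest neutrophil marker sum, 105 CPM, against 11.8 and 11.9 CPM in the other 2 and 3.37 to 5.27 CPM in sham. Most other marker lists were highest there too among injured M isolates, such as T cell (28.1 CPM, against 6.73 and 5.30 CPM) and endothelial (1541 CPM, against 690 and 898 CPM). Proximal tubule, principal cell, intercalated cell and macrophage markers were not. The part of any of these cells was not tested. Both calls were lost without sham M library 1 (adjusted p 0.17 and 0.096), where 0.0202% of all genes were called, or 2 (adjusted p 0.19 and 0.11), where 0.0% were. They were also lost with only the 2 M groups in the fit (adjusted p 0.19 and 0.13), where 0.0113% were called.

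The tubular RNA in these isolates also moved with injury. Proximal tubule markers summed to 16160, 17420 and 9169 CPM in sham M isolates and to 6452, 6357 and 6917 CPM in injured ones. With the proximal tubule marker score of each library as a covariate, neither gene was called (Mt1 1.91, edgeR adjusted p = 0.73; Mt2 3.06, adjusted p = 0.65), nor was any other (0.0% of all genes). The score, the mean log2 CPM of the markers, was 9.37 to 10.3 in sham and 8.71 to 9.05 in injured M isolates. These groups did not overlap in it, so this fit cannot tell the score from injury. Whether endothelial or tubular cells carried the metallothionein transcripts cannot be told apart here.

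Slc39a14 was at 54.5, 58.5 and 34.1 CPM in sham M isolates and at 67.9, 207 and 88.3 CPM in injured ones, without overlap (1.30 ± 0.38, edgeR adjusted p = 0.14). Slc39a8 had 69.0, 67.7 and 25.9 CPM, then 30.3, 25.1 and 36.9 CPM (-0.82 ± 0.34, adjusted p = 0.29), and its sham library 3 lay with the injured ones. Without that library Slc39a8 was called lower (-1.15, adjusted p = 0.032). That library had the most endothelial marker RNA of the sham M isolates, 1735 CPM against 424 and 464 CPM. In F isolates 0 of 7 genes were called by edgeR, where 0.0% of all genes were, and 0 by DESeq2, where 0.0995% were, and 0 had an unadjusted p under 0.05, against 2.39% of all genes. There Mt1 stood at 103 and 60.9 CPM in the 2 sham and at 106, 80.8 and 153 CPM in the 3 injured libraries. The sex difference in the response was called for 0 of 7 genes and 0.0% of all genes, with 4 of 7 against 6.5% at an unadjusted p under 0.05. Its estimates were 2.86 ± 0.84 for Mt1 and 3.78 ± 0.84 for Mt2 (adjusted p = 0.74 and 0.73), and DESeq2 called Mt2 alone, with 0.176% of genes with a read.

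Between the sexes, sham CD31 isolates gave 0 of 7 genes called, where 0.432% of all genes were. By unadjusted p there was 1 of 7, against 6.81% of all genes, and DESeq2 called that same gene, with 1.13% of genes with a read. It was Slc39a5, at 33.7, 33.3 and 17.5 CPM in males and 76.8 and 98.9 CPM in females (-1.64 ± 0.39, edgeR adjusted p = 0.14). In injured isolates 4 of 7 genes were called, 3 higher and 1 lower in males, where 1.5% of all genes were called, 0.663% higher and 0.834% lower. Slc39a5 was 7.81-fold lower in males, at 14.4, 8.39 and 22.6 CPM against 112, 112 and 131 CPM (-2.97 ± 0.38, adjusted p = 0.0040). Mt1 (2.87 ± 0.60, adjusted p = 0.042), Mt2 (3.70 ± 0.62, adjusted p = 0.016) and Slc39a14 (1.84 ± 0.39, adjusted p = 0.045) were higher in males, and none of the 4 overlapped. The last 3 calls were lost without any 1 of the F libraries (adjusted p 0.072 to 0.21), that of Slc39a14 also without M library 3 (adjusted p = 0.052), and all 4 with the tubule marker score as a covariate (Slc39a5 -1.84, adjusted p = 0.36), a fit in which 0.0603% of all genes were called. That score was 8.71 to 9.05 in injured M and 9.95 to 10.3 in injured F isolates. The sexes did not overlap in it, so this fit cannot tell the score from sex.

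**Figure D5:**
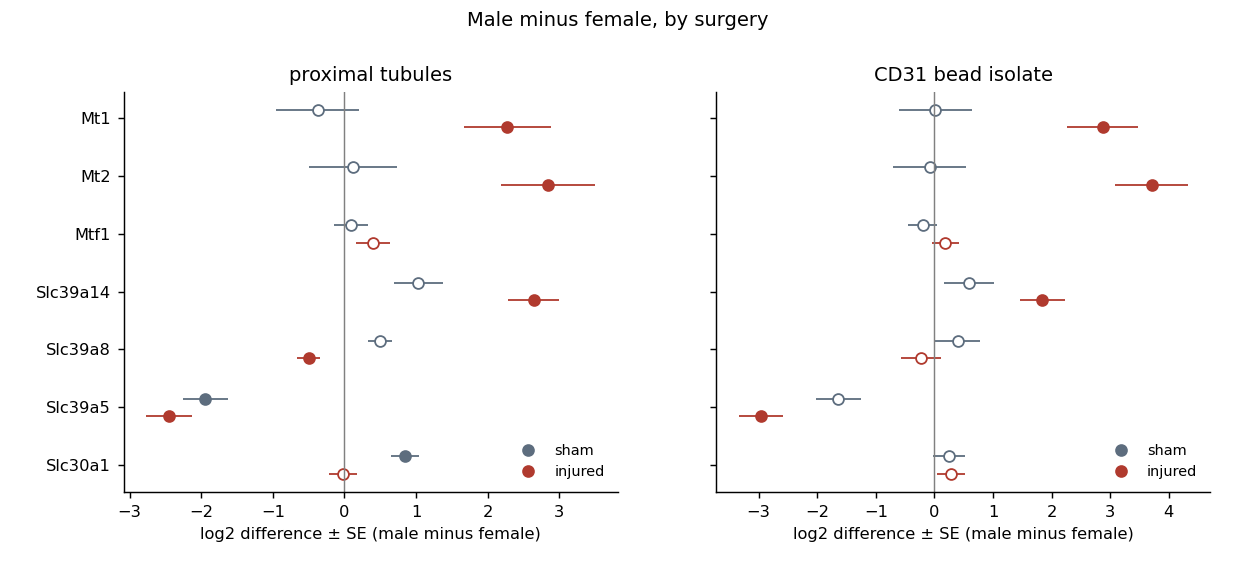
Log2 difference between the sexes (male minus female, x axis) of 7 genes in tubules (left) and CD31 isolates (right), grey after sham surgery and red after injury, with bars of 1 SE and filled points where the edgeR adjusted p was under 0.05. Slc39a5 lies between -2.97 and -1.64 in all 4 comparisons, and the metallothioneins lie near 0 after sham surgery.

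The isolations were compared over all 23 libraries taken as independent, although the sample titles use the same numbers in both and do not say whether a shared number is the same mouse. After sham surgery 1 of 8 was called, where 12.3% of all 21206 genes were: Slc39a8 was lower in the CD31 isolates than in tubules (46.0 against 70.0 CPM; -0.63 ± 0.20, edgeR adjusted p = 0.043). This call was lost without sham M isolate library 3 (-0.47, adjusted p = 0.069), either of the F isolate libraries (adjusted p 0.055 and 0.25), any of the F tubule libraries (adjusted p 0.053 to 0.091) or M tubule library 1 or 2 (adjusted p 0.082 and 0.096). After injury 0 of 8 were called by edgeR, where 4.69% of all genes were, and 0 by DESeq2, where 5.15% were. At an unadjusted p under 0.05 there was 1 of 8, Mtf1, against 17.2% of all genes. Without injured M isolate library 2, Slc39a14 was called lower in the isolates (-0.79, adjusted p = 0.041). Mt1 was at 443 CPM in injured isolates and 347 CPM in injured tubules (0.15 ± 0.43).

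The wider zinc transporter families were read from full lists of the ZIP and ZnT genes. In injured M tubules 4 of 11 tested ZIP genes rose and 1 fell, where 10.6% of all genes rose and 8.43% fell, with a median log2 change of -0.05 against -0.03 over all genes. Besides Slc39a14, the risers were Slc39a1, which brings zinc through the cell membrane (77.2 ± 1.40 to 124 ± 7.92 CPM; 0.68 ± 0.11, edgeR adjusted p = 0.0035), Slc39a6 (0.99 ± 0.27, adjusted p = 0.029) and Slc39a10 (0.56 ± 0.16, adjusted p = 0.034). Of 7 tested ZnT genes 2 rose and 2 fell. Slc30a2, a vesicular exporter, rose from 141 ± 16.4 to 307 ± 159 CPM (1.12 ± 0.33, adjusted p = 0.038) and Slc30a4 from 38.3 ± 4.42 to 71.1 ± 24.7 CPM (0.89 ± 0.25, adjusted p = 0.033). Slc30a5, of the secretory pathway, fell beside Slc30a1 (-0.50 ± 0.16, adjusted p = 0.044). Without injured M library 3 the counts were 4 higher and 4 lower for ZIP and 3 higher and 4 lower for ZnT, in a fit that called 42.5% of all genes. In F tubules 0 genes of either list were called with or without that library.

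Slc30a2 also separated the sexes. It stood at 51.6 ± 9.77 CPM in sham F and 141 ± 16.4 CPM in sham M tubules (1.45 ± 0.34, edgeR adjusted p = 0.028), and at 51.1 ± 6.49 CPM in injured F and 307 ± 159 CPM in injured M tubules (2.59 ± 0.35, adjusted p = 9.9e-04). In sham tubules 3 of 7 ZnT genes were called, all higher in males (Slc30a1, Slc30a2 and Slc30a5). Of 11 tested ZIP genes 1 was higher (Slc39a10, 0.66 ± 0.16) and 1 lower (Slc39a5), where 3.24% of all genes were higher and 2.56% lower. In injured tubules 2 of 7 ZnT genes were higher in males, Slc30a2 and Slc30a4 (1.17 ± 0.26, adjusted p = 0.0096), where 12.8% of all genes were higher and 10.5% lower. Of the 11 ZIP genes 3 were higher there, Slc39a14, Slc39a10 (1.00 ± 0.16, adjusted p = 0.0023) and Slc39a1 (0.74 ± 0.11, adjusted p = 0.0016), and 4 lower, Slc39a5, Slc39a8, Slc39a3 and Slc39a13. In the CD31 isolates no ZIP or ZnT gene outside the 8 was called by injury or sex.

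Transcript models bear on Mtf1. Its 781-base retained-intron model took 51.1% of the gene's TPM in injured M and 52.2% in injured F tubules. A 636-base coding model took 26.1% (15.5 to 34.4%) in injured M and 0.0% in all 3 injured F tubule libraries, and 31.2% (20.9 to 37.1%) in sham F ones. Mtf1 did not pass between injured M and F tubules on read counts (0.40 ± 0.24, edgeR adjusted p = 0.24), but did with offsets for effective length (1.36, adjusted p = 0.0100). The authors' deposited table also calls it there (1.32 ± 0.33, deposited adjusted p = 2.0e-04). Of the metallothioneins, the 549-base model carried 94.4 to 99.9% of Mt1 TPM in each library.

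The authors' deposited tables, made with DESeq2, give the metallothioneins in injured against sham M tubules as 3.49 ± 0.59 for Mt1 (deposited adjusted p = 1.7e-08) and 4.02 ± 0.65 for Mt2 (deposited adjusted p = 4.6e-09). Slc30a1, which passed the edgeR test there, is not called in the authors' deposited table (-0.49 ± 0.25, deposited adjusted p = 0.087), while Mtf1 is (0.74 ± 0.33, deposited adjusted p = 0.033). For injury in F tubules the deposited changes are far smaller than those of edgeR. They are 0.068 ± 0.169 for Mt1 and 0.085 ± 0.185 for Mt2, against 1.00 ± 0.58 and 1.42 ± 0.63 by edgeR. The deposited errors are smaller too, so these values are not read as the same measure as those of edgeR. The reason was not tested. In sham CD31 isolates the authors' deposited table calls Slc39a5 lower in males (-1.55 ± 0.39, deposited adjusted p = 6.3e-04). Injured against sham F isolates are all close to 0 in the authors' deposited table, the farthest being Slc39a5 at 2.3e-06. All 8 genes carry the same deposited error there, 0.00144, so these values are not read as measured changes.

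The genes most like Mt1, Mt2 and Slc39a14 in pattern were taken as the 5 highest Pearson correlations of log2 CPM among 10647 genes over the 12 tubule libraries. These are descriptions over libraries that share the large step in 2 or 3 injured males. For Mt1 they were Spry2 (0.99), Arl2bp, Mt2, Sdcbp and Rell1, and for Mt2 they included Sox9 (0.99), a transcription factor known in tubule repair, Sox4, Mt1 and Rell1. Those of Slc39a14 were Psmd11 (0.99), Kif5b, Ext1, Mrps18b and Cttn. Over the 11 CD31 isolates, Mt1 and Mt2 were the closest genes to each other (0.99) among 11242, followed by Cldn3, Pgm1 and Vat1, and those nearest Slc39a14 were Pkp3, Ube2j1, Nploc4, Pgs1 and Sat1 (0.97 to 0.98).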

How the data were processed

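The measurements were poly-A RNA-seq of 24 libraries. The authors quantified transcripts with Salmon 0.13.1 on GRCm38, per the submitters' processing notes, and deposited estimated counts (expected counts, not normalized), TPM (scaled within a library) and effective lengths. Their comparison tables hold a deposited log2 fold change with its error and a deposited adjusted p-value from DESeq2, version not given in the sources used here.

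From these, the transcripts of a gene had their estimated counts added, then rounded to whole numbers, and the sequencing runs 3 and 3B of sham M tubule replicate 3 were added. Each isolation was fitted over all its genes with edgeR 4.0.16 in R 4.3.3 (TMM, filterByExpr with minimum count 10 and minimum total 15, 1 mean per group, quasi-likelihood F-test), and endothelial against tubule with all 23 libraries. SE was taken as |log2 change| over the square root of the F statistic. Between-gene levels use summed TPM. Positions are from GENCODE M21. The fits were tested on simulated data before use.

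Members were named whatever their values, and from each list up to 4 called genes with the smallest adjusted p are named, and likeness was computed with a prior count of 2 over genes averaging 5 CPM or more. The members and lists were chosen with earlier results of these data known. Gene Gm45774 and Ankrd52 were named after their values were seen. One gene among those most like Mt2 is not reported here. Alternatives were RLE normalization, no filter, DESeq2 1.42.0, length offsets, only the groups compared, a replicate block, a tubule marker covariate, library 3B alone and leaving out each library. List counts without injured M tubule library 3 were added after seeing the data. The labels give a group, a replicate and a number, and do not say whether tubule and endothelial groups share mice. The p-values set each difference against the spread between these libraries.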

Additional observations from a re-analysis of the deposited data

How the results depend on the processing

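Counts are of the 7 tested members called (8 between isolations). Fitting only the groups compared gave 1 for injury in M tubules (5 as reported), 2 for injury in F tubules (0), 3 for sex in injured tubules (5), 0 for injury in M isolates (2), 1 for sex in injured isolates (4) and 0 for sham isolates against tubules (1). DESeq2 gave 4 for the sex difference in the tubule response (0), 1 for sex in sham isolates (0) and 1 for the sex difference in the isolate response (0). It called 4.01%, 1.13% and 0.176% of genes with a read in these comparisons in turn. In the fits of only the groups compared, the share of all genes called was 0.913% for injury in M tubules (19.0% as reported), 6.9% in F tubules (0.0109%), 9.97% for sex in injured tubules (23.3%), 0.0113% for injury in M isolates (0.864%), 0.746% for sex in injured isolates (1.5%) and 11.3% for sham isolates against tubules (12.3%). With no filter, sex in sham isolates gave 1 (0.732% of all genes, 0.432% as reported) and the sex difference in the isolate response 2 (0.129%, 0.0% as reported). Sham isolates against tubules became 0 there (6.69%, 12.3% as reported). Length offsets gave 1 for injury in M isolates (0.306%, 0.864% as reported) and 0 for sham isolates against tubules (9.29%). Library 3B alone gave 0 for the latter (12.2%). The tubule marker covariate gave 0 for injury in M isolates (0.0%) and 0 for sex in injured isolates (0.0603%). Its score did not overlap between the groups compared in either, so these 2 fits cannot tell the score from injury or sex. Leaving out 1 library at a time gave 3 to 6 for injury in M tubules (4.97 to 42.5% of all genes) and 1 to 3 for sex in sham tubules (2.84 to 13.6%). It gave 2 to 7 for sex in injured tubules (9.82 to 44.1%) and 0 to 6 for the sex difference in the tubule response (0.0983 to 30.5%). For injury in M isolates it gave 0 to 3 (0.0 to 3.6%), and for sex in injured isolates 1 to 4 (0.389 to 1.98%). Between isolates and tubules it gave 0 to 1 in sham (6.02 to 12.6%) and 0 to 1 in injured libraries (1.89 to 7.74%). The count was 0 for injury in F tubules (0.0 to 2.59%), injury in F isolates (0.0 to 0.00465%), sex in sham isolates (0.116 to 1.12%) and the sex difference in the isolate response (0.0 to 0.00513%). The cause of these shifts between fits was not tested.

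The sign of Slc30a1 between the sexes in injured tubules (-0.02) reversed to 0.0397 with RLE, 0.0305 with no filter, 0.0386 with DESeq2, 0.171 with length offsets, 0.0273 with library 3B alone, and ran from -0.341 without M library 3, where it was called (edgeR adjusted p = 0.024), to 0.150 without M library 2. Slc39a8 after injury in M isolates (-0.82) reversed to 0.61 with the tubule marker covariate. Slc39a8 was not called there, and neither was Slc30a1 at any of its positive values. The cause was not tested.

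Deviations from group means were correlated between libraries of the same replicate index. The values ran from -0.222 to 0.248 within an isolation, where groups share no title number. They ran from -0.43 to 0.575 between isolations, where such libraries of a group do share it. These values come from few libraries per group and cannot decide whether a shared number pairs the isolations. With the replicate index as a block within an isolation, 0 members were called for injury in M isolates (0.256% of all genes) and 1 for sex in injured isolates (0.668%). The labels do not say what that index stands for. Between isolations the block was the number in the sample titles, and 1 member was called in sham (Slc39a8, -0.63, adjusted p = 0.019) and 0 in injured libraries. If a number is a mouse, that blocked fit is the one that allows for it. Depth limits Slc39a4, which had at most 20 estimated reads in a library and was not tested within an isolation.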

Other observations

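Metallothionein transcription is known to respond to cytokines and glucocorticoids. Genes of IL-6 and STAT3 signalling and glucocorticoid-responsive genes were therefore read from whole lists, as were genes of copper handling. In injured M tubules 7 of 11 tested genes of IL-6 and STAT3 signalling rose and 0 fell, where 10.6% of all genes rose and 8.43% fell, with a median log2 change of 1.71 against -0.03 over all genes. Stat3, the transcription factor of the pathway, went from 56.3 ± 4.95 to 263 ± 122 CPM (SD, n = 3; 2.22 ± 0.29, edgeR adjusted p = 0.0015), and Osmr, the oncostatin M receptor, from 1.41 ± 0.683 to 16.8 ± 5.27 CPM (3.57 ± 0.69, adjusted p = 0.0077). Cebpb (2.68 ± 0.78, adjusted p = 0.036) and Il6 (5.74 ± 1.64, adjusted p = 0.040) were among the others called, Il6 at 9.87 ± 9.99 CPM after injury and 0.181 ± 0.157 CPM in sham. Without injured M library 3 the count was again 7 higher and 0 lower, while 42.5% of all genes were called in place of 19.0%. In F tubules 0 of 11 were called (0.0109% of all genes), or 2 without that M library (2.59% of all genes), and in CD31 isolates 0 of 11 were called by injury or sex.

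Of 8 glucocorticoid-responsive genes 3 rose in injured M tubules and 0 fell, where 10.6% of all genes rose and 8.43% fell. The risers were Zbtb16 (3.21 ± 0.962 to 57.4 ± 43.4 CPM; 4.16 ± 0.86, edgeR adjusted p = 0.011), Sgk1 (1.91 ± 0.53, adjusted p = 0.031) and Fkbp5 (0.93 ± 0.27, adjusted p = 0.033). Without injured M library 3 the count became 6 higher, in the same fit with 42.5% of all genes called. Fkbp5 was already higher in males after sham surgery, at 234 ± 49.3 against 98.6 ± 21.4 CPM (1.24 ± 0.27, adjusted p = 0.019). Of 10 copper-handling genes 1 rose and 2 fell in injured M tubules, against the same 10.6% and 8.43% of all genes. Atox1, a cytosolic copper chaperone, rose (0.68 ± 0.14, adjusted p = 0.012), while the copper importer Slc31a1 (-0.59 ± 0.11, adjusted p = 0.0071) and Ccs, the chaperone of superoxide dismutase (-0.60 ± 0.10, adjusted p = 0.0051), fell. Without injured M library 3 the copper counts were 1 higher and 3 lower, again with 42.5% of all genes called. Atox1 was lower in males than in females after sham surgery (36.6 ± 4.51 against 68.8 ± 6.16 CPM; -0.91 ± 0.14, adjusted p = 0.0032).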
